A study of Mus musculus with 2 samples.

Results

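The glutathione S-transferase family was examined in mouse heart through 10 genes: Gsta2, Gsta3, Gsta4, Gm10639 and Gm3776 of the alpha class, Gstm1, Gstm2 and Gstm5 of the mu class, Gstp1 of the pi class and Gstt1 of the theta class. They were taken by name from 21368 genes that the array's RefSeq accessions name, with values of these same samples already known, and are read by 16 probes on 25 spots. Total RNA was measured in 2 heart samples, each on its own 1-colour Agilent array: a control sample of C57BL6 background, here the control heart, and a sample, here the WRN-K577M heart, of the strain B6.Cg-Tg (CAG-WRN*K577M), line 5025Wcl/Mmmh, on the same background. That line carries a WRN helicase changed in its helicase domain (WRN-K577M) as a transgene under the CAG promoter, which is active in most cell types and not only in heart muscle. The sources used here give neither the age of the mice nor how many hearts went into a sample. Both titles carry the letters ND without explanation. The series was set up to ask which signalling accompanies cardiac remodelling in this line.

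Glutathione S-transferases join the tripeptide glutathione to reactive, fat-soluble compounds, which makes them soluble and ready for export from the cell. In heart muscle their substrates include aldehydes such as 4-hydroxynonenal that form when membrane lipids are oxidised. The cytosolic enzymes are dimers grouped into classes by sequence, the genes of a class mostly lie side by side in the genome, and many of them are known targets of the transcription factor Nrf2, encoded by Nfe2l2.

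Levels are log2 processed signals from which the 75th percentile of the same array was subtracted. Log2 ratios are levels in the WRN-K577M heart minus levels in the control. A gene counts as measured when both arrays show one of its probes well above background, and it takes the value of the brightest such probe. All 10 genes, and all 16 probes, were measured in this sense. With 1 array per group there is no replicate check and no test between genotypes, and differences between genotypes cannot be told apart from other differences between the samples. The scanner software's error of a ratio covers measurement only. It was 0.20 for the probe that stands for each of the 10 genes, and is printed for other probes and genes in part. The log2 ratio of 263 probes printed at several spots varied between spots with an SD of 0.11. Levels of different genes come from different probes and are not ranked against each other.

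The arrays held 55681 probes that are not controls, of which 55.2% (control) and 52.9% (WRN-K577M) were well above background. Over the 14004 measured genes the median log2 ratio was 0.02 with an SD of 0.52. All 12 cardiomyocyte markers were measured, with log2 ratios from -0.39 to 0.25 and a median of 0.16 that ran from -0.042 to 0.16 over the alternatives. Many markers of other tissues and cells were lower in the WRN-K577M heart. Of 12 lung and airway markers, 7 were above background in the control only, among them Sftpc (at least 1340-fold lower). Of the 3 measured on both arrays, Scgb1a1 of airway club cells had a log2 ratio of -7.78 and Wfdc2 one of -4.29. The third, Scgb3a1, lay above 0 (-1.03 and -0.85, ratio 0.18). Also lower by 2-fold or more were 6 of 8 measured atrial, 5 of 6 adipocyte, 5 of 8 fibroblast, 4 of 4 erythroid and 2 of 7 macrophage markers (0 of the 7 after normexp background correction). The atrial Sln (-9.41), Myl7 (-7.39) and Myl4 (-7.12) had very low ratios, while Tbx5 (0.17) and Nr2f2 (0.12) of that list lay above 0. Whether the samples held the same parts of the heart was not tested. Other lists were mixed. Of 5 measured hepatocyte markers, 2 lay above 0 and 3 below. The dim Ttr was higher (-3.92 and -1.52, ratio 2.40, and 1.1 after normexp). The brighter Cyp2e1 was lower (2.07 and -0.92, ratio -2.99, and -2.55 after normexp). Alb, Apoa1 and Fga were not above background. Of 5 smooth muscle markers, Acta2 (0.85) and Des (0.66) lay above 0. Below 0 were Myh11 (-0.63), Tagln (-0.94) and Cnn1 (-1.26, lower by 2-fold or more), and the median was -0.63. Of 6 endothelial markers 3 lay above 0 and 3 below, with a median of -0.0023.

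Of the 10 genes, 8 had a log2 ratio above 0 and 2 below. Gm10639, Gm3776 and Gsta2, all of the alpha class, were higher by 2-fold or more in the WRN-K577M heart, and none of the 10 was 2-fold lower. Among all measured genes, 52.4% had a ratio above 0, 1.94% were higher by 2-fold or more and 3.46% lower by as much. The median log2 ratio of the 10 genes was 0.53, with a range from -0.87 for Gstt1 to 2.13 for Gm10639. Since the genes were chosen with these ratios known, the counts and the median describe the set and support nothing beyond it.

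**Figure D1:**
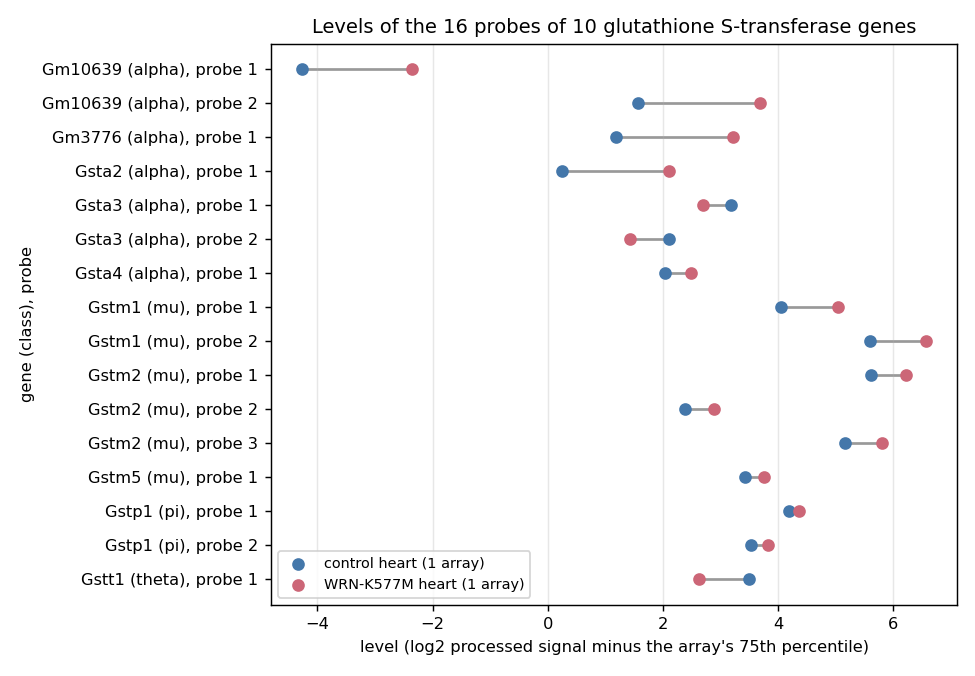
Level of each of the 16 probes (rows, with gene and class) on the control array (blue) and the WRN-K577M array (red), as log2 processed signal minus the 75th percentile of the array. The gap between the points is the log2 ratio, 2.13 for the brighter probe of Gm10639 and -0.87 for Gstt1; positions of different probes along the axis are not comparable between genes.

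The alpha class held the largest differences. Its enzymes reduce lipid hydroperoxides as well as conjugating glutathione. Gm10639, an alpha-class gene still listed under a model name, was read by a pair of probes of very different brightness. The brighter read 1.57 (control) and 3.69 (WRN-K577M), a log2 ratio of 2.13 with a software error of 0.20, or 4.37-fold higher. The dim one, at -4.27 and -2.35, gave a ratio of 1.91 with an error of 0.32. Both probes thus pointed the same way by similar amounts, although after normexp background correction, which here includes a fixed offset, the dim probe's ratio was 0.78 and the brighter one's 2.02. Among all measured genes the brighter probe's ratio had rank 22 from the highest.

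Gm3776, the neighbouring model gene, had levels of 1.19 (control) and 3.22 (WRN-K577M). Its log2 ratio was 2.04 with an error of 0.20 (4.10-fold higher, rank 25 of 14004). Gsta2, the third of these genes, had levels of 0.24 (control) and 2.11 (WRN-K577M), a log2 ratio of 1.87 with an error of 0.20 (3.67-fold higher, rank 34). In processed signal, before scaling, these genes went from 583 to 1960 units for Gm3776 and from 302 to 906 for Gsta2. Their ratios differ from one another by less than the sum of their errors.

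These genes are close copies. Gsta1, a further copy between Gsta4 and Gm3776 on chromosome 9, has no probe named here. The probe sequences were not used here, so whether the probes of Gm10639, Gm3776 and Gsta2 each read their own transcript, several copies or Gsta1 as well could not be checked, and the values may count shared transcripts more than once. The RefSeq bases before the annotated starts show how alike the copies are in another part of the gene. Each sequence is the 250 bases before the start, 5′ to 3′, on GRCm38.p6, and capitals mark the longest stretch found in all copies, which is 18 bases long.
Gm10639 (chr9:78289678-78289927, + strand): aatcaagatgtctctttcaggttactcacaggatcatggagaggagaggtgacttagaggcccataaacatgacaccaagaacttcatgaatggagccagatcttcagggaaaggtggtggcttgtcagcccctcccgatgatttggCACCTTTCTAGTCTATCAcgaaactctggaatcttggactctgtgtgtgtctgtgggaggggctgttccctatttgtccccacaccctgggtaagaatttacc
Gm3776 (chr9:78256879-78257128, + strand): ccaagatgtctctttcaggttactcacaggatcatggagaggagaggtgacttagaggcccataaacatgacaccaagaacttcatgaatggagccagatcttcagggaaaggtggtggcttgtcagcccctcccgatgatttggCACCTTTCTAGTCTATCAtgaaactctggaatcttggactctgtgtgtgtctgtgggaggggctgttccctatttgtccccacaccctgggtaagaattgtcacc
Gsta1 (chr9:78230419-78230668, + strand): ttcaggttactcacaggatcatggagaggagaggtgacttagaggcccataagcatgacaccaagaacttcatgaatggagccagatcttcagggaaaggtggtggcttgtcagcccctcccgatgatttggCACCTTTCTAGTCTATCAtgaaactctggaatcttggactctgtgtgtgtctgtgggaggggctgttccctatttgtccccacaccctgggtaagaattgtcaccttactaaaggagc
Gsta2 (chr9:78347146-78347395, - strand): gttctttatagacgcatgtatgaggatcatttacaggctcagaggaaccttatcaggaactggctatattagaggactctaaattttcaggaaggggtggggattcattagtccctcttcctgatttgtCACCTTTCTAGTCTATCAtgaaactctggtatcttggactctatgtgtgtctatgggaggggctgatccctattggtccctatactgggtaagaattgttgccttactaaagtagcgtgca

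In a local alignment Gm3776 and Gm10639 were identical at 242 of 243 aligned bases (99.6%), and Gm3776 and Gsta1 at 236 of 237 (99.6%). Gsta2 was more distant, with 75.3% identity to Gm3776 over 223 aligned bases, and it lies on the opposite strand.

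Gsta4, whose enzyme is specialised for 4-hydroxynonenal, lies next to these copies on chromosome 9 and was printed at 10 spots. Its spots ranged from 1.95 to 2.16 in the control and from 2.37 to 2.57 in the WRN-K577M heart. They repeat 1 probe on 1 array per group, so their spread says nothing of the spread between mice. The log2 ratio was 0.44 (1.36-fold higher), with an SD of 0.083 over spots and a range from 0.31 to 0.61. The software's error was 0.20, wider than the spread between the spots. Gsta3, an alpha-class enzyme known in mouse for detoxifying the epoxide of aflatoxin B1, lies apart from the others on chromosome 1 and was lower. One probe read 3.18 (control) and 2.69 (WRN-K577M), a log2 ratio of -0.48, and the other 2.11 and 1.43 (-0.68), each with an error of 0.20. Both probes were thus lower in the WRN-K577M heart. Among markers of other cells, 7 of 8 fibroblast genes lay below 0, with a summed linear level of 297 (control) and 219 (WRN-K577M). The 3 lung and airway markers measured on both arrays summed to 56.8 and 0.899, although Scgb3a1 among them lay above 0 (0.18). Of 6 measured adipocyte genes 5 lay below 0, although their sum was 161 and 196 through Fabp4 (0.53). The part of these cells in the lower level of Gsta3, and in that of Gstt1, was not tested. In RNA of mixed cells, fewer cells of a type and less RNA per cell cannot be told apart.

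The mu-class genes, which act on epoxides and quinones among other compounds, were higher by smaller amounts. Gstm1 was read by a pair of probes that gave the same ratio. The brighter read 5.59 (control) and 6.57 (WRN-K577M), the other 4.05 and 5.03, and both had a log2 ratio of 0.98 with an error of 0.20. This is 1.97-fold, just short of the 2-fold mark, and rank 293 among measured genes. Gstm2 had 3 probes with levels of 5.61, 5.16 and 2.39 (control) and 6.22, 5.81 and 2.88 (WRN-K577M). Its log2 ratios were 0.61, 0.65 and 0.48, so all 3 probes were higher in the WRN-K577M heart by 1.40-fold to 1.57-fold. Gstm5 had levels of 3.43 and 3.76, a ratio of 0.33 that is within 2 errors of 0.

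Gstp1, the main pi-class enzyme, had small ratios. Its probes had levels of 4.19 and 3.53 (control) and 4.36 and 3.83 (WRN-K577M), and the log2 ratios of 0.18 and 0.29 were within 2 errors of 0. Gstp2 is a close copy beside it, so its probes may share transcripts with those of Gstp1. The brighter Gstp2 probe had levels of 6.83 and 6.95, a ratio of 0.12 that became -0.0024 with cyclic loess. Gstt1, a theta-class enzyme that acts on small halogenated compounds, had the lowest ratio of the 10. Its levels were 3.49 (control) and 2.62 (WRN-K577M), a log2 ratio of -0.87 with an error of 0.20, or 1.82-fold lower.

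Along the chromosomes the classes differed in how their genes compared. On chromosome 3 all 7 mu genes of the annotation's row were measured, with ratios from 0.29 for Gstm6 to 0.98 for Gstm1. All 7 lay above 0 under the main setting and all 9 alternatives. Among all measured genes, 52.4% lay above 0 under the main setting. The 3 measured genes flanking that row, Ahcyl1, Csf1 and Ampd2, lay below 0, from -0.75 to -0.20. Of the mu genes outside the set, Gstm3 had levels of 3.29 and 4.13 (ratio 0.83), from the 1 of its 2 probes that was measured. Gstm7 had 1.02 and 1.5 (0.48) and Gstm6 -0.51 and -0.22 (0.29, within 2 errors of 0). The probes of Gstm4 disagreed: the brighter, at 2.08 and 2.95, gave a ratio of 0.87 and the other 0.036. Probe sequences were not used, so whether the mu probes also read each other's transcripts could not be checked. The 7 genes may therefore not be separate readings.

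On chromosome 9 all 4 measured alpha genes lay above 0, also under every alternative. Of their measured neighbours, Dppa5a, next to Gsta2, was also 2-fold higher at dim levels (-3.14 and -2.13, ratio 1.01). Cilk1, next to Gsta4, had a ratio of 0.35, Gcm1 was lower (-1.91) and Fbxo9 close to 0 (0.0045), so that 3 of 4 measured neighbours lay above 0. The theta genes on chromosome 10 went different ways. Gstt2 had levels of 0.10 and 0.77 (ratio 0.67), Gstt3 0.71 and 0.73 (0.023, of either sign under the alternatives), and Gstt1 between them in the row was lower. Their neighbours Ddt and Mif had ratios close to 0, at -0.039 and -0.057. Derl3, beyond Mif, was higher at dim levels (-3.48 and -1.2, ratio 2.28). Of the pi genes on chromosome 19, Gstp3 was not well above background on either array.

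**Figure D2:**
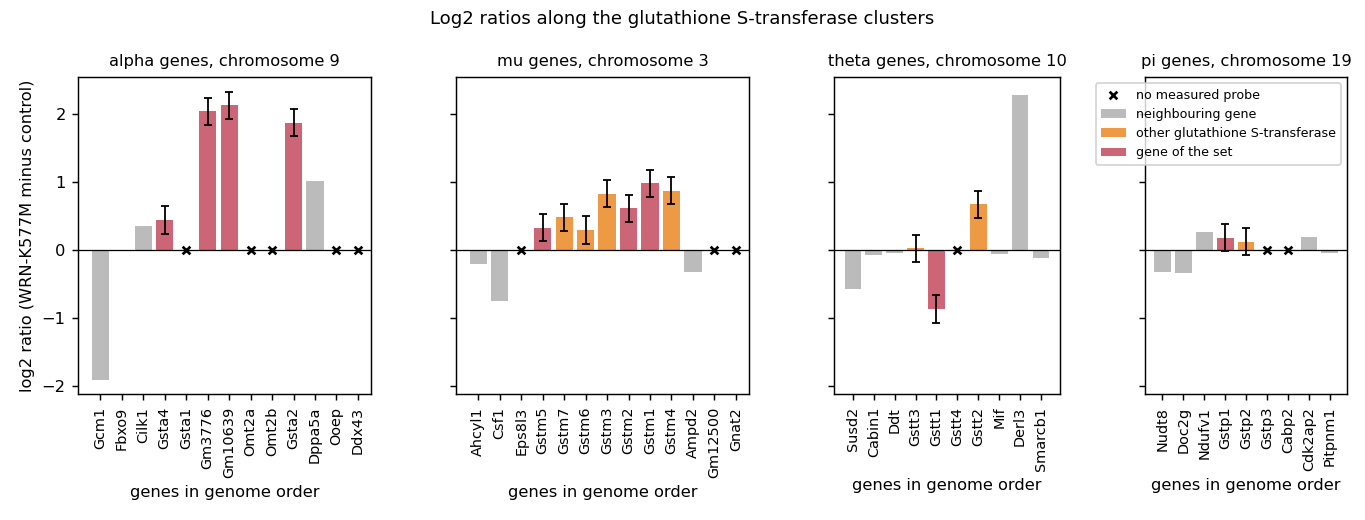
Log2 ratio of each measured gene (bars) in genome order for the alpha, mu, theta and pi clusters, with genes of the set in red, other glutathione S-transferases in orange and neighbouring protein-coding genes in grey. Black lines are the software's error of the ratio for the transferases and crosses mark genes without a measured probe. The 7 mu genes all lie between 0.29 and 0.98, and Gstt1 at -0.87 is below 0; Gstt3 and Gstp2, near 0, fall on its other side under some alternatives.

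The other family list held 25 names. Of these, 17 were measured, Gstp3, Gstt4, Gstcd and Hpgds did not pass the background mark on any array, and Gsta1, Gsta5, Gsta13 and Gstp-ps had no probe named here. Gsta5 and Gsta13 are no symbols of the gene table, so a gene they stand for may be listed there under another name. The measured genes had a median of 0.17, with 12 above 0, none 2-fold higher and 1 lower by 2-fold or more. Over the alternatives, 10 to 12 of these 17 lay above 0.

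Among family genes outside the alpha, mu, pi and theta classes, the microsomal Mgst1, which protects membranes from peroxides, was higher. Its levels were 4.06 and 4.86 (ratio 0.79), and a second probe gave 0.75. Mgst3 had levels of 5.61 and 6.02 (0.40). Mgst2 was dim, at -2.47 and -3.88, and was 2-fold lower (-1.41, error 0.33), but its ratio was -0.15 after normexp. Gstk1 of mitochondria and peroxisomes (0.17), Gstz1 of tyrosine breakdown (0.13), Gsto1, which reduces dehydroascorbate (0.22), Gsto2 (-0.16) and the prostaglandin E synthase Ptges (-0.17) all lay within 2 errors of 0. Ltc4s, which joins glutathione to leukotriene A4, had levels of 1.57 and 0.85 (-0.72), and Alox5ap, which supplies that pathway with arachidonate, 2.10 and 1.36 (-0.74). Both are known from leukocytes. All 7 macrophage markers lay below 0 with a median of -0.64 (at most 1 above 0 under any alternative), their summed linear level was 35.3 (control) and 22.0 (WRN-K577M), and all stayed above background on both arrays. Their part in the values of Ltc4s and Alox5ap was not tested.

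The supply of glutathione was compared through 21 genes of its synthesis and recycling, of which 19 were measured. Of these, 13 lay above 0 (10 to 13 over the alternatives), 2 were past 2-fold in the higher direction and none in the other, and the median was 0.18. Glutathione is made by glutamate-cysteine ligase and then glutathione synthetase. Gclm, the modifier subunit of the ligase, had levels of -1.09 and 0.32 (ratio 1.41), whereas its catalytic subunit Gclc had 1.35 and 1.60 (0.24). The synthetase Gss had a ratio of 0.25 and glutathione reductase Gsr 0.031, all 3 within 2 errors of 0. Chac1, which breaks glutathione down inside the cell, was the other gene past 2-fold, at 1.42 and 2.75 (1.33). Slc7a11, the cystine carrier, was not well above background on either array, its partner chain Slc3a2 had a ratio of 0.69, and the peptidase Anpep one of -0.74.

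Glutathione peroxidases and glutaredoxins, which also spend glutathione, showed no shared direction: 7 of 14 measured genes lay above 0 and 7 below, with a median of -0.033 that took either sign over the alternatives (-0.084 to 0.055). The plasma peroxidase Gpx3 was higher, at 4.71 and 5.50 (ratio 0.79), and the cytosolic Gpx1 lower, at 5.41 and 4.68 (-0.73). Glrx, cytosolic glutaredoxin, was the sole one past 2-fold, at 1.47 and 0.40 (-1.07, and -0.95 after normexp). The fourth by size was the glyoxalase Hagh (-0.34).

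Export and further breakdown of conjugates had 8 of 13 measured genes above 0 and none at least 2-fold different, with a median of 0.061. The conjugate exporter Abcc1 had levels of 0.84 and 1.23 (ratio 0.39, within 2 errors of 0). The exporter Abcg2 (0.57) was higher, and Abcc3 (-0.85) and Abcc10 (-0.54) were lower. Among 24 measured genes of other detoxification enzymes, 11 lay above 0, 3 were higher by 2-fold or more (2 to 3 over the alternatives) and 1 lower by as much. Among those higher were the sulfotransferase Sult1a1 (3.65 and 4.98, ratio 1.33) and the microsomal epoxide hydrolase Ephx1 (4.03 and 5.18, 1.15). The other probe of Ephx1 gave 0.84, short of 2-fold. The lower one was the carbonyl reductase Cbr2, at 5.17 and 3.29 (-1.88). The aldehyde dehydrogenase Aldh1a7, well above background in the control only, has a bound of at least 6.22-fold lower. Cbr2 is abundant in airway cells, and the part of lung RNA in its value was not tested. Of the 12 lung and airway markers 3 were measured on both arrays, with a summed level of 56.8 (control) and 0.899 (WRN-K577M). Of these 3, Scgb3a1 lay above 0 (0.18). Nqo1, a quinone reductase and known Nrf2 target named here after its value was seen, had levels of 1.84 and 2.76 (0.92).

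**Figure D3:**
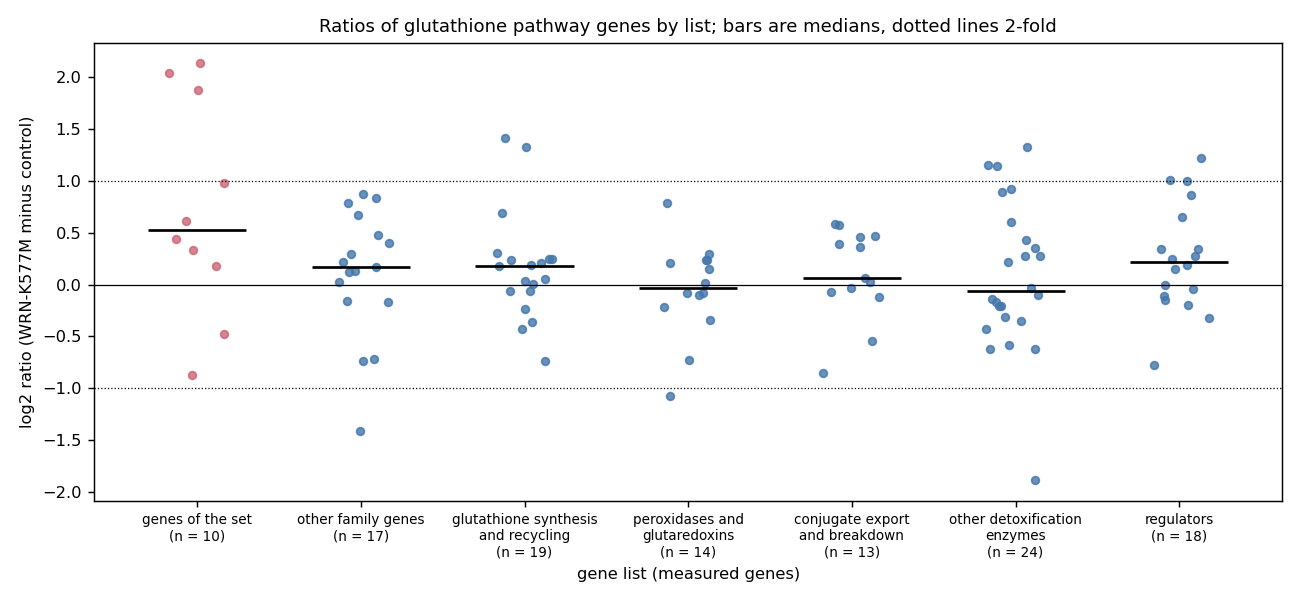
Log2 ratio of every measured gene in the set of 10 (red) and in 6 lists of related genes (blue); each point is a gene, black bars are medians and dotted lines mark 2-fold. The medians run from -0.065 for other detoxification enzymes to 0.53 for the set, whose genes were chosen with their ratios known.

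The genes for regulators of the family had 11 of 18 measured members above 0 and a median of 0.22. The messages of Nfe2l2 (levels 3.71 and 3.90, ratio 0.19) and of Keap1, which holds the Nrf2 protein back (3.10 and 3.06, -0.039), differed by less than 2 errors. Past 2-fold were Bach2, a repressor related to the Nrf2 competitor Bach1 (-2.31 and -1.08, 1.22), and the small Maf partners Mafk (1.19 and 2.20, 1.01) and Maff (0.57 and 1.57, 1.00). After normexp these ratios were 0.88, 0.95 and 0.73, none of them 2-fold. The adaptor Sqstm1, which binds Keap1, had levels of 3.68 and 4.54 (0.86). An array measures messages, and the activity of these proteins was not measured.

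Promoters in the RefSeq table, 250 bases before to 50 after the start, were found for 9 of the 10 genes (not Gsta4) and searched on both strands. The antioxidant response element core TGACNNNGC was in 2 of 9, Gsta3 and Gstm5, against 12.4% of all 32851 promoters of that length. It was in none of the alpha copies that were 2-fold higher. The xenobiotic response element core GCGTG was in 5 of 9 (Gsta2, Gm3776, Gstm1, Gstm5 and Gstp1) against 32.4% of all. The AP-1 element TGANTCA was in 2 of 9, Gstm5 and Gstp1, against 7.81%. In Gstm5 the first and second motifs overlap. These matches are letters in a window, and no match says nothing of elements elsewhere.

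The AP-1 match lies in a stretch that Gstp1 shares with its copy Gstp2, whose ratios were both within 2 errors of 0. The 250 bases before each start are shown on GRCm38.p6 with the match in capitals, and the copies were identical at 206 of 246 aligned bases (83.7%).
Gstp1 (chr19:4037913-4038162, - strand): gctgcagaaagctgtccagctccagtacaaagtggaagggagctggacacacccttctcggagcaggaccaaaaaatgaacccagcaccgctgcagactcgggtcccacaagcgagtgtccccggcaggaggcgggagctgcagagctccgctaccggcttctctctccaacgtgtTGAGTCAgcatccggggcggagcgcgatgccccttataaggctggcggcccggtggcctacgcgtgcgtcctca
Gstp2 (chr19:4042222-4042471, - strand): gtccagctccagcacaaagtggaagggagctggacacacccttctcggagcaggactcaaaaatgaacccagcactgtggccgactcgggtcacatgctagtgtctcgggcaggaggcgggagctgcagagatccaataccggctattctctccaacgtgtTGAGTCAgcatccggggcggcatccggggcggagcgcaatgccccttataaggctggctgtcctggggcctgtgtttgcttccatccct

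The ratios of the 10 genes changed little with the processing. Over the main setting and 9 alternatives, Gm10639 ran from 2.02 to 2.13, Gm3776 from 1.89 to 2.04 and Gsta2 from 1.71 to 1.87, all at least 2-fold higher in each. Gstm1 ran from 0.87 to 0.98 and did not reach 2-fold in any. Gsta3 (-0.58 to -0.48) and Gstt1 (-0.92 to -0.87) were below 0 in each.

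**Figure D4:**
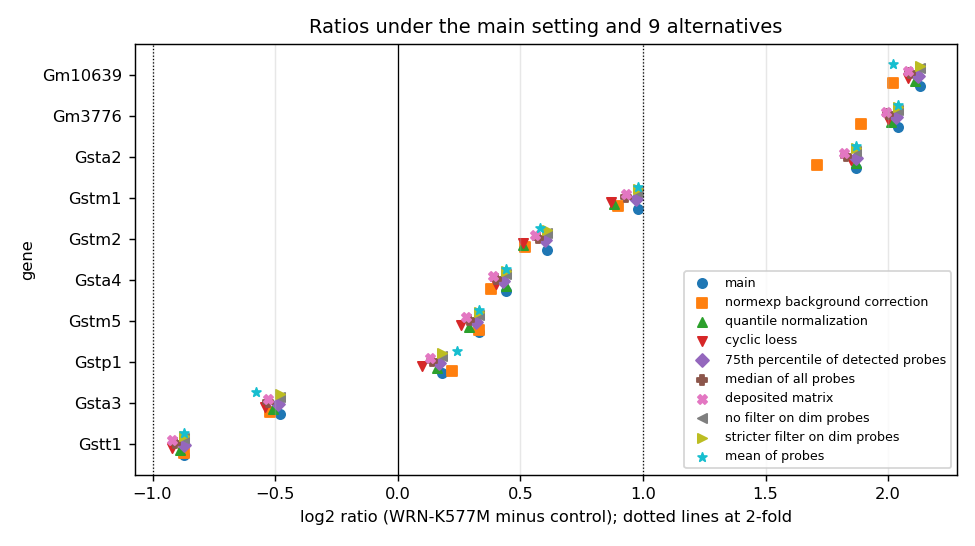
Log2 ratio of each of the 10 genes (rows) under the main setting and 9 alternatives (symbols), with dotted lines at 2-fold. Gm10639, Gm3776 and Gsta2 lie beyond the 2-fold line under all of them, Gstm1 inside it at 0.87 to 0.98, and none of the 10 crosses 0.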

How the data were processed

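Cy3-labelled total RNA from 1 control and 1 WRN-K577M heart sample, grouped by the genotype label, was read on 1-colour arrays. Per the file headers, the spot files hold intensity values. Agilent Feature Extraction 11.5.1.1 made them, per the submitters' processing notes. The processed signal is background-subtracted and detrended but not scaled between arrays. Spots carry 0 or 1 flags. The value table deposited with the series holds linear intensity, the processed signal times 4.12 (control) or 4.86 (WRN-K577M), with column medians of 79.5 and 79.0; the origin of these factors is unknown.

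Control spots and 257 outlier spots were left out, and no spot was saturated. Log2 processed signal minus the 75th percentile (256 control, 210 WRN-K577M) was averaged over spots of a probe. A total of 22544 of 23871 RefSeq accessions matched the GRCm38.p6 table, which names 28330 probes. The array design is annotated on mm9, so that table gave gene names and gene order but no coordinates. Printed promoter sequences and positions come from the RefSeq promoter table of GRCm38.p6. The members, lists and tests were chosen with earlier results of these data known. All members and measured family genes are named, and of each other list 8 preset genes and the 4 largest ratios, except some that are not reported here; neighbours were taken by position. A gene on 1 array only has a bound against the lowest level well above background (-4.73 control, -4.42 WRN-K577M). The number of arrays limits the precision, and no test was run. Normexp (offset 50) used the median spot signal. Further alternatives were quantile normalization, cyclic loess, other scalings, the matrix, other filters, the mean of probes and thresholds of 1.5-fold and 3-fold. Protein identity between members was planned and not computed here. Python 3.11.15, numpy 2.4.6, pandas 2.3.3, biopython 1.88, matplotlib 3.10.9, R 4.3.3 and limma 3.58.1 were used, and the counting was tested on simulated data.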

Additional observations from a re-analysis of the deposited data

How the results depend on the processing

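No paired analysis was possible because each group has 1 sample. Of the 10 genes, 3 were past 2-fold in the higher direction and none in the other under the main setting and all 9 alternatives of normalization, scaling, filter and probe summary, and their median ran from 0.45 to 0.53. At a threshold of 1.5-fold, 5 were higher and 1 lower. Of the 17 other measured family genes, 4 were higher and 3 lower at 1.5-fold, against 0 and 1 at 2-fold. The shares of all measured genes were computed at 2-fold only (1.94% higher and 3.46% lower). The counts at 1.5-fold therefore have no share to be set against. The 1 at 2-fold, Mgst2, was lost after normexp (0 lower), with the stricter filter on dim probes (0), which leaves it out, and at 3-fold (0). Of 242 ratios of these 27 genes under the 9 alternatives, 8 moved by more than the spread between spots and 5 changed sign, all of them Gstp2 or Gstt3. Other normalizations and scalings moved the median of all genes by at most 0.054. Without a filter on dim probes the median moved by 0.10, and 53.4% of the 2-fold genes were higher, against 35.9% under the main setting. Near background, the ratio of the dim probe of Gm10639 went from 1.91 to 0.78 with normexp and that of Mgst2 from -1.41 to -0.15.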
